A study of Homo sapiens with 12 samples.

Results

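The 10 genes described here are the partners of the BCR-ABL1 fusion (BCR and ABL1), the STAT5 transcription factors STAT5A and STAT5B, and 6 genes commonly read as STAT5 output: CISH, SOCS1, SOCS2, PIM1, PIM2 and OSM. They were chosen by name, and each was matched by symbol to 1 of the 60664 rows of the count table. All 10 passed the filter on low counts, which kept 17349 genes. They were followed in 2 human B-cell acute lymphoblastic leukaemia lines: TOM-1, which carries the Philadelphia chromosome and so the BCR-ABL1 fusion, and RS4;11, which carries a KMT2A-AFF1 fusion. Each line was kept in RPMI with 20% fetal bovine serum and then either left as control or given ADI-PEG20 at 1000 ng/ml, both for 24 h. ADI-PEG20 is a pegylated arginine deiminase, which turns extracellular arginine into citrulline. Poly(A) RNA was sequenced from 3 libraries in each of the 4 groups, 12 in all, and the labels give the genotype of both lines as WT, with no engineered allele.

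BCR-ABL1 is a constitutively active tyrosine kinase made when the start of BCR is joined to most of ABL1. It phosphorylates STAT5A and STAT5B, which pair, enter the nucleus and bind DNA at the palindrome TTCNNNGAA. Cytokine receptors reach the same factors through JAK kinases. CISH, SOCS1 and SOCS2 are induced by this route and damp it, PIM1 and PIM2 are serine/threonine kinases that favour survival, and OSM encodes oncostatin M, a secreted cytokine of the interleukin-6 family.

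Totals ran from 18958144 to 35956959 counts per library. The library labelled TOM-1 control replicate 3 stood apart: reads were found in 14963 genes there against 19857 to 21997 in the other 11 libraries. Its correlation with the other TOM-1 controls on log2 CPM (counts scaled to a common library total) was 0.951 and 0.949, whereas every other pair of replicates reached at least 0.994. Results that rest on it are therefore given with and without this library. The estimated drug effects in RS4;11 moved by at most 0.01 on the log2 scale for the 10 genes. Their 95% intervals narrowed without it, as all 4 groups were fitted in 1 model. For ABL1 in RS4;11 the interval was -0.40 to 0.39 with all libraries and -0.13 to 0.12 without this one. RS4;11 intervals below are from all libraries unless stated. Of 11 B-lymphoblast markers, 11 reached a mean of 1 CPM in the TOM-1 groups; 10 did in RS4;11. Of 6 T-cell markers, only TRAC reached a mean of 1 CPM in any group. The 6 summed to 123 to 210 CPM in TOM-1 controls, 135 to 151 CPM in treated TOM-1, 427 to 480 CPM in RS4;11 controls and 424 to 457 CPM in treated RS4;11. The other 5 were at 0 in every TOM-1 library, CD3D, CD3E, CD3G and CD2 were at 0 in RS4;11 controls, and in treated RS4;11 only CD3G was at 0 in all libraries. HOXA9 and MEIS1, marks of KMT2A-rearranged leukaemia, were at 0 in every TOM-1 library but summed to 140 to 153 CPM in RS4;11 controls. Summed stromal markers were 6.12 to 11.5 CPM in TOM-1 controls and 2.7 to 3.74 CPM under ADI-PEG20. In RS4;11 they were 36.3 to 46 CPM in controls and 32.5 to 40.8 CPM under treatment. COL1A2 and COL3A1 were at 0 in every group. Over all libraries, summed myeloid markers lay between 10.2 and 26.7 CPM. Summed NK-cell markers, of which NKG7 alone reached a mean of 1 CPM, lay between 24.9 and 69.1 CPM. The part of these markers in the results was not tested. The labels do not say that replicates came from separate cultures, so p-values measure only the spread between these libraries. In bulk RNA, fewer cells of a kind and less RNA per cell cannot be told apart.

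Promoter sequences are shown first for the members where letters and data can be set side by side: CISH, the member whose window held the STAT5 palindrome, and PIM1 and PIM2, the pair of kinases that moved in opposite directions in TOM-1. They come from RefSeq on GRCh38.p14, which matched 8 of the 10 members (SOCS2 and OSM were not matched). The CISH stretch is chr3:50611875-50612024 on the minus strand, 250 to 101 bases before the start site, with each TTCNNNGAA in capitals. The PIM2 stretch is chrX:48919025-48919274 on the minus strand and the PIM1 stretch chr6:37169902-37170151 on the plus strand, both the 250 bases before the start site. Capitals in PIM2 mark the octamer ATGCAAAT read on either strand, a motif chosen after its sequence had been seen.
CISH: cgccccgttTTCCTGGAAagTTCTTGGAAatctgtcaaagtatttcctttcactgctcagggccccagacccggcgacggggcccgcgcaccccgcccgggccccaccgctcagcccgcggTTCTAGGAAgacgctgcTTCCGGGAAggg
PIM2: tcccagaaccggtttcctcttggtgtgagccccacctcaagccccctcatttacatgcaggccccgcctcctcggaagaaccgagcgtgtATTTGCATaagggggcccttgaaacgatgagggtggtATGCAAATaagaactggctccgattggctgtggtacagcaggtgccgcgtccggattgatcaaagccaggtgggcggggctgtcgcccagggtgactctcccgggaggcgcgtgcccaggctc
PIM1: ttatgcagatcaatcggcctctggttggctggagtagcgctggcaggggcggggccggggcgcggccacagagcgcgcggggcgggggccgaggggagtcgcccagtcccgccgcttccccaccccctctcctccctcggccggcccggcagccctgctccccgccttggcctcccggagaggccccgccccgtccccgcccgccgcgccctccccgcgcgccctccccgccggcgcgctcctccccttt

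The CISH stretch held 4 copies of the palindrome: TTCCTGGAA starting 241 bases before the start site, TTCTTGGAA at 230, TTCTAGGAA at 129 and TTCCGGGAA at 112. Of 35116 promoter windows of 300 bases, 2689 (7.66%) held at least 1 copy on either strand and 7 (0.0199%) held 4, the highest number found. None of the other 9 windows of the members, from 7 genes, held a copy, PIM1 and PIM2 included. Of 8 further STAT5 target genes with windows, BCL6 alone held the palindrome, also 4 copies in 1 of its windows, 3 of which reach past its start site. The PIM2 window held 2 octamers, starting 160 and 123 bases before the start site and in opposite orientations, and PIM1 held none. The octamer was present in 623 (1.77%) of all windows. These matches are letters in a window of fixed length, and binding was not measured.

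In every group SOCS2 had the highest level of the 10 genes when counts were set against exonic length. It reached 86.2 CPM per kilobase in TOM-1 controls, 114 in TOM-1 with ADI-PEG20, 56.5 in RS4;11 controls and 53.6 in RS4;11 with ADI-PEG20. ABL1 came second in each group by its mean. In TOM-1 controls the range of ABL1 overlapped that of STAT5B through replicate 3, although within each of these libraries ABL1 was above STAT5B. In replicate 3 STAT5A was above ABL1. STAT5A was at 32.2 CPM per kilobase in TOM-1 controls and STAT5B at 32.3, with overlap. Without replicate 3 they were at 31.1 and 36.8 with no overlap, STAT5A being lower in both remaining libraries. In RS4;11 controls STAT5A was at 4.81 against 17.7 for STAT5B, also with no overlap. CISH, OSM and SOCS1 were low throughout, at most 3.24 CPM per kilobase as a group mean. Without length scaling, the levels below are CPM and compare 1 gene between groups.

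**Figure D1:**
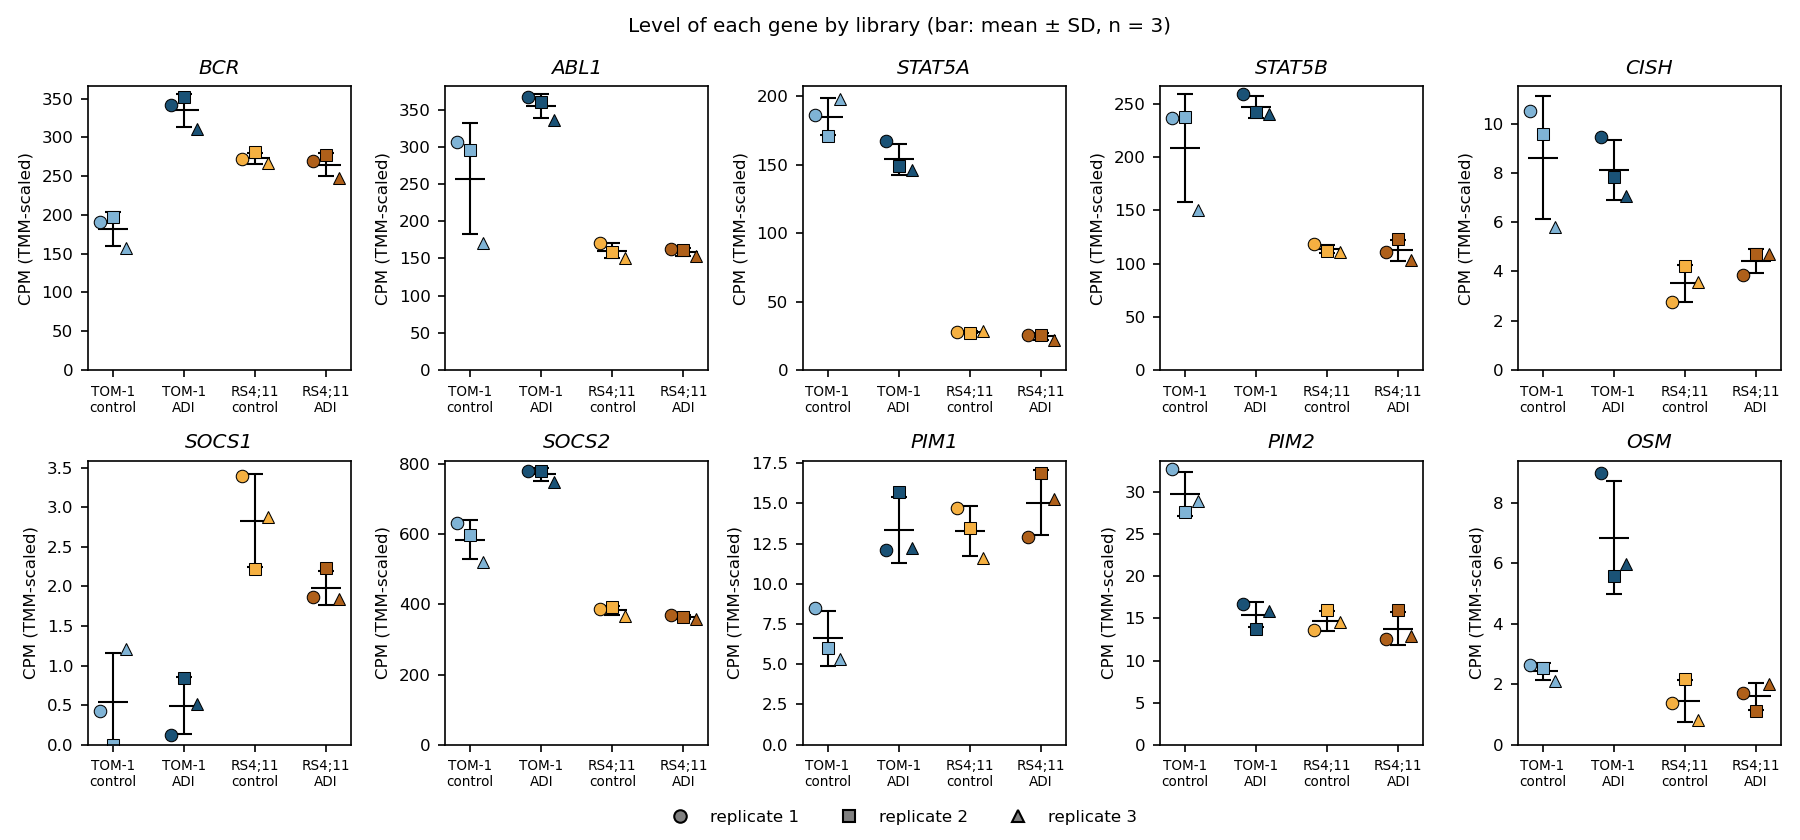
CPM of each of the 10 genes (vertical axes, TMM-scaled, each starting at 0) in the 4 groups, 1 symbol per library with mean and SD over 3 libraries. In TOM-1, BCR, PIM1 and OSM lie higher and PIM2 lower in every ADI-PEG20 library than in any control, while the RS4;11 groups overlap for 9 genes; the TOM-1 control triangle, replicate 3, sits lowest of its group for 7 genes: ABL1, BCR, STAT5B, CISH, SOCS2, PIM1 and OSM.

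BCR, whose product serves as a GTPase-activating and oligomerizing protein in normal cells, rose under ADI-PEG20 in TOM-1 (gene ENSG00000186716, chr22:23179704-23318037, plus strand). Its level was 191, 198 and 157 CPM in the control libraries 1 to 3 and 342, 352 and 311 CPM in the treated ones. All treated libraries lay above all controls, and the mean went from 182 ± 21.8 to 335 ± 21.5 CPM (SD, n = 3). The increase was 1.84-fold (log2 0.88, SE 0.11, adjusted p = 0.000191 by edgeR's quasi-likelihood test), and 1.72-fold without TOM-1 control replicate 3 (adjusted p = 4.13e-09). In RS4;11 the level was 272, 281 and 267 CPM in controls and 269, 277 and 248 CPM under treatment, which overlapped. The log2 difference there was -0.05 (95% interval -0.30 to 0.20).

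ABL1, the tyrosine kinase partner (ENSG00000097007, chr9:130713946-130887675, plus strand), was also higher in every treated TOM-1 library, but its call depended on which controls were kept. Control libraries measured 306, 295 and 171 CPM, the last being replicate 3, and treated libraries 367, 360 and 336 CPM. With all 12 libraries the log2 difference was 0.46 (SE 0.18, adjusted p = 0.0694, edgeR), which missed the threshold of 0.05. Without TOM-1 control replicate 3 it was smaller, 0.24, and passed (adjusted p = 0.0054). It also passed, at 0.57, when TOM-1 control replicate 1 was the one left out (adjusted p = 0.0405). In RS4;11 ABL1 was 171, 158 and 151 CPM in controls and 163, 161 and 153 CPM under ADI-PEG20, with a log2 difference of 0.00 (95% interval -0.40 to 0.39). Treated and control RS4;11 libraries overlapped.

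Counts per gene cannot separate reads of the fusion transcript from reads of normal BCR or ABL1. The 9 BCR pseudogenes together held 0 to 17 counts per library, at most 0.29% of the BCR count. Within a library, the BCR count over the ABL1 count was 0.624 to 0.917 in TOM-1 controls, the highest being replicate 3, and 0.925 to 0.978 under ADI-PEG20. In RS4;11 this ratio was 1.59 to 1.78 in controls and 1.61 to 1.72 under treatment. BCR thus counted below ABL1 in all 6 TOM-1 libraries and above it in all 6 RS4;11 libraries, before any scaling for length. The 4 group comparisons of this ratio belong to 12 tested for 3 ratios, in which 3 libraries against 3 cannot give a two-sided exact permutation p below 0.1 (0.13 after Benjamini-Hochberg adjustment). TOM-1 against RS4;11 reached that limit in both conditions, and so did ADI-PEG20 against control in TOM-1.

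STAT5A (ENSG00000126561, chr17:42287547-42311943, plus strand) and STAT5B (ENSG00000173757, chr17:42199168-42276707, minus strand) are near-identical factors from neighbouring genes, so reads shared by both sequences make their separate counts uncertain. STAT5A in TOM-1 measured 186, 171 and 198 CPM in controls and 167, 149 and 146 CPM under ADI-PEG20. Every treated library was below every control, with a log2 difference of -0.27 (SE 0.11) that missed the threshold with all libraries (adjusted p = 0.0997, edgeR). Without TOM-1 control replicate 3 it was -0.22 and passed (adjusted p = 0.036). In RS4;11 STAT5A was far lower, 27.6, 26.9 and 28.6 CPM in controls and 25.9, 25.8 and 21.8 CPM under treatment. The RS4;11 groups did not overlap either, as for 16.8% of all tested genes, but the log2 difference of -0.17 (95% interval -0.43 to 0.08) was not called.

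STAT5B gave no called response in either line. Its TOM-1 controls were 237, 238 and 150 CPM, the last again replicate 3, against 259, 242 and 241 CPM under ADI-PEG20. The log2 difference was 0.25 (adjusted p = 0.272, edgeR) over the full set and 0.06 (95% interval -0.09 to 0.20) once that control was left out. RS4;11 libraries overlapped at 111 to 118 CPM in controls and 103 to 123 CPM under treatment.

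The STAT5A count over the STAT5B count in the same library was 0.72 to 1.32 in TOM-1 controls and 0.606 to 0.646 under ADI-PEG20. In RS4;11 it was 0.234 to 0.257 and 0.21 to 0.233. All 4 comparisons were free of overlap and reached the lowest exact permutation p possible, 0.1 (0.13 adjusted). The TOM-1 difference in log2 ratio went from -0.54 to -0.27 when control replicate 3, the library at 1.32, was left out. The difference in log2 ratio between the lines was 1.90 in control culture, or 1.63 without that library, and 1.51 under ADI-PEG20.

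**Figure D2:**
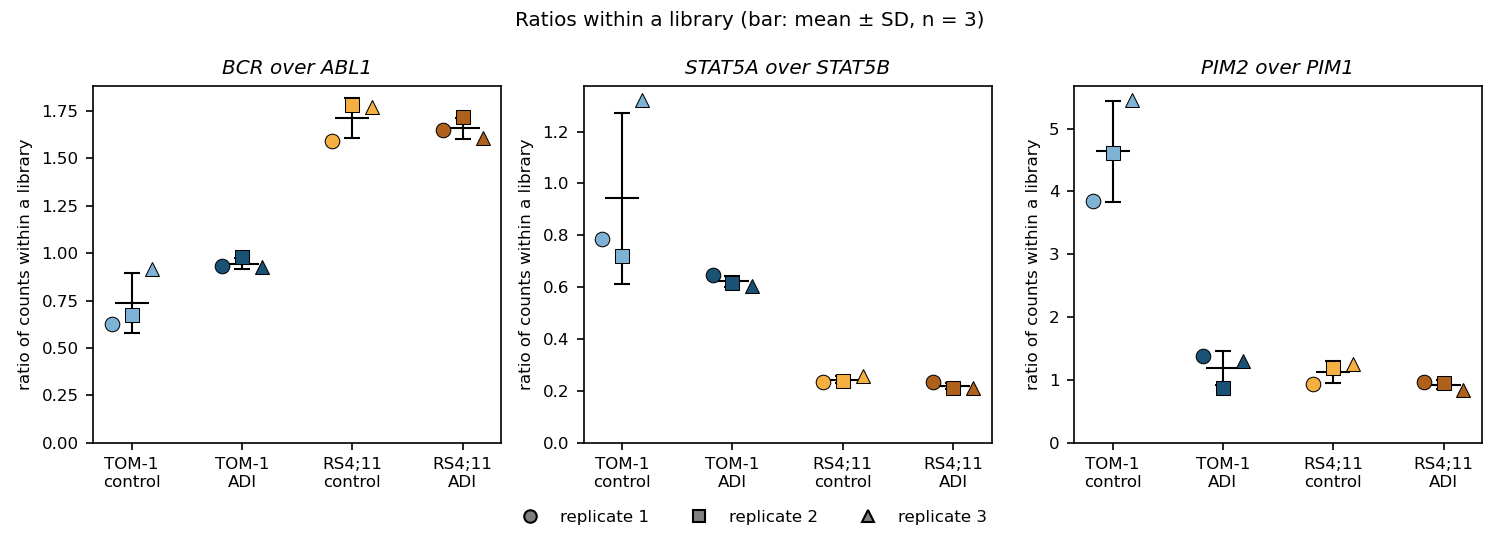
Ratio of the counts of 2 genes within a library (vertical axes, starting at 0) in the 4 groups, 1 symbol per library with mean and SD over 3 libraries. PIM2 over PIM1 stands at 3.85 to 5.45 in TOM-1 controls and at 0.842 to 1.38 in all other libraries, and STAT5A over STAT5B separates the lines.

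Of the feedback inhibitors, CISH, the first recognised member of the SOCS family (ENSG00000114737, chr3:50606490-50611831, minus strand), showed no called response. It measured 10.5, 9.56 and 5.79 CPM in TOM-1 controls and 9.46, 7.83 and 7.08 CPM under ADI-PEG20, and these overlapped. The overlap came through control replicate 3, at 5.79 CPM, and every treated library lay below both other controls. The log2 difference was -0.09 (95% interval -0.65 to 0.47; adjusted p = 0.851, edgeR), or -0.31 without TOM-1 control replicate 3 (adjusted p = 0.319). In RS4;11 it was 2.75, 4.24 and 3.59 CPM in controls and 3.87, 4.71 and 4.71 CPM under treatment, a log2 difference of 0.33 (95% interval -0.26 to 0.91) with overlap. Of the exonic bases of CISH, 4.26% overlap MAPKAPK3 on the other strand, and whether counting used strand is not given in the sources used here. The 5 genes whose log2 CPM followed CISH most closely over the 12 libraries, among those with a mean of at least 5 CPM, were EP400P1 (Pearson r = 0.97), SPIN4 (0.96), SFMBT1 (0.959), XPO7 (0.951) and KLHL3 (0.95). These r values stayed between 0.951 and 0.976 over 11 libraries. The points share their lines and treatments, so the likeness is a description of the groups' levels.

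SOCS1, a direct inhibitor of JAK kinases (ENSG00000185338, chr16:11254405-11256200, minus strand), was close to the detection limit in TOM-1. Control libraries held 15, 0 and 22 counts and treated libraries 3, 22 and 13 counts, which overlapped. A count of 0 allows up to 3 counts, an allowance for counting error only. RS4;11 held 79, 54 and 60 counts in controls (3.39, 2.22 and 2.87 CPM) and 47, 46 and 36 counts under treatment (1.87, 2.23 and 1.84 CPM). No drug response was called: the 95% interval of the log2 difference ran from -2.13 to 1.97 in TOM-1 and from -2.38 to 1.35 in RS4;11. A 2-fold change in either direction lay inside both intervals. Without TOM-1 control replicate 3 the TOM-1 estimate turned from -0.08 to 1.10 (95% interval -0.60 to 2.79), and the RS4;11 interval was -1.75 to 0.73, still with no call. Fitted values of SOCS1 in TOM-1 rest on few counts and depend on the prior count.

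SOCS2, a substrate adaptor of a ubiquitin ligase that acts on growth hormone signalling (ENSG00000120833, chr12:93569814-93583487, plus strand), rose modestly in TOM-1. It measured 631, 599 and 522 CPM in controls and 781, 780 and 750 CPM under ADI-PEG20, with all treated libraries above all controls. The increase was 1.32-fold (log2 0.40, SE 0.10, adjusted p = 0.00973, edgeR) and 1.25-fold without TOM-1 control replicate 3 (adjusted p = 4.7e-05). The call was lost without TOM-1 ADI-PEG20 replicate 1 (adjusted p = 0.0531) or replicate 2 (0.0658), without a filter on low counts (0.0671) and when the 6 TOM-1 libraries were fitted alone (0.121). RS4;11 had 388, 392 and 368 CPM in controls and 369, 364 and 357 CPM under treatment, which overlapped (log2 -0.07, 95% interval -0.29 to 0.14). SOCS2-AS1 overlaps 4.09% of the exonic bases of SOCS2 on the other strand.

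The kinases PIM1 (ENSG00000137193, chr6:37170203-37175426, plus strand) and PIM2 (ENSG00000102096, chrX:48913182-48919024, minus strand) changed in opposite directions in TOM-1. PIM1 was 8.5, 6.01 and 5.3 CPM in controls and 12.1, 15.7 and 12.2 CPM under ADI-PEG20, a 2.01-fold increase (log2 1.01, SE 0.21, adjusted p = 0.00375, edgeR). PIM2 was 32.7, 27.7 and 28.9 CPM in controls and 16.7, 13.8 and 15.9 CPM under ADI-PEG20, a 1.93-fold decrease (log2 -0.95, SE 0.15, adjusted p = 0.000657). Neither pair of groups overlapped, and both calls held without TOM-1 control replicate 3, at log2 0.87 for PIM1 and -0.98 for PIM2.

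In RS4;11 PIM1 measured 14.7, 13.5 and 11.6 CPM in controls and 12.9, 16.9 and 15.3 CPM under treatment, and PIM2 13.6, 16 and 14.6 CPM against 12.5, 16 and 12.9 CPM. Both overlapped, and the 95% intervals of the log2 differences were -0.28 to 0.63 for PIM1 and -0.43 to 0.23 for PIM2. PIM2 over PIM1 within a library was 3.85 to 5.45 in TOM-1 controls and 0.876 to 1.38 in TOM-1 with ADI-PEG20, beside 0.927 to 1.26 and 0.842 to 0.972 in RS4;11. The fall of this ratio in TOM-1 was 3.95-fold with no overlap (exact permutation p = 0.1, two-sided, the lowest possible, 0.13 adjusted), and log2 -1.86 in place of -1.98 without control replicate 3. Treated TOM-1 and treated RS4;11 libraries overlapped in this ratio (exact permutation p = 0.3), where the difference of log2 ratios was 0.34.

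OSM (ENSG00000099985, chr22:30262829-30266840, minus strand) had the largest fold increase of the 10 genes in TOM-1, from a low level. Controls measured 2.64, 2.54 and 2.1 CPM and treated libraries 8.99, 5.57 and 5.98 CPM, with no overlap. The increase was 2.81-fold (log2 1.49, SE 0.38, adjusted p = 0.0103, edgeR) and 2.63-fold without TOM-1 control replicate 3 (adjusted p = 0.0056). The call rested in part on TOM-1 ADI-PEG20 replicate 1, the library at 8.99 CPM, without which log2 was 1.23 and the adjusted p 0.0611. RS4;11 libraries overlapped at 0.813 to 2.18 CPM in controls and 1.12 to 2.0 CPM under treatment.

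**Figure D3:**
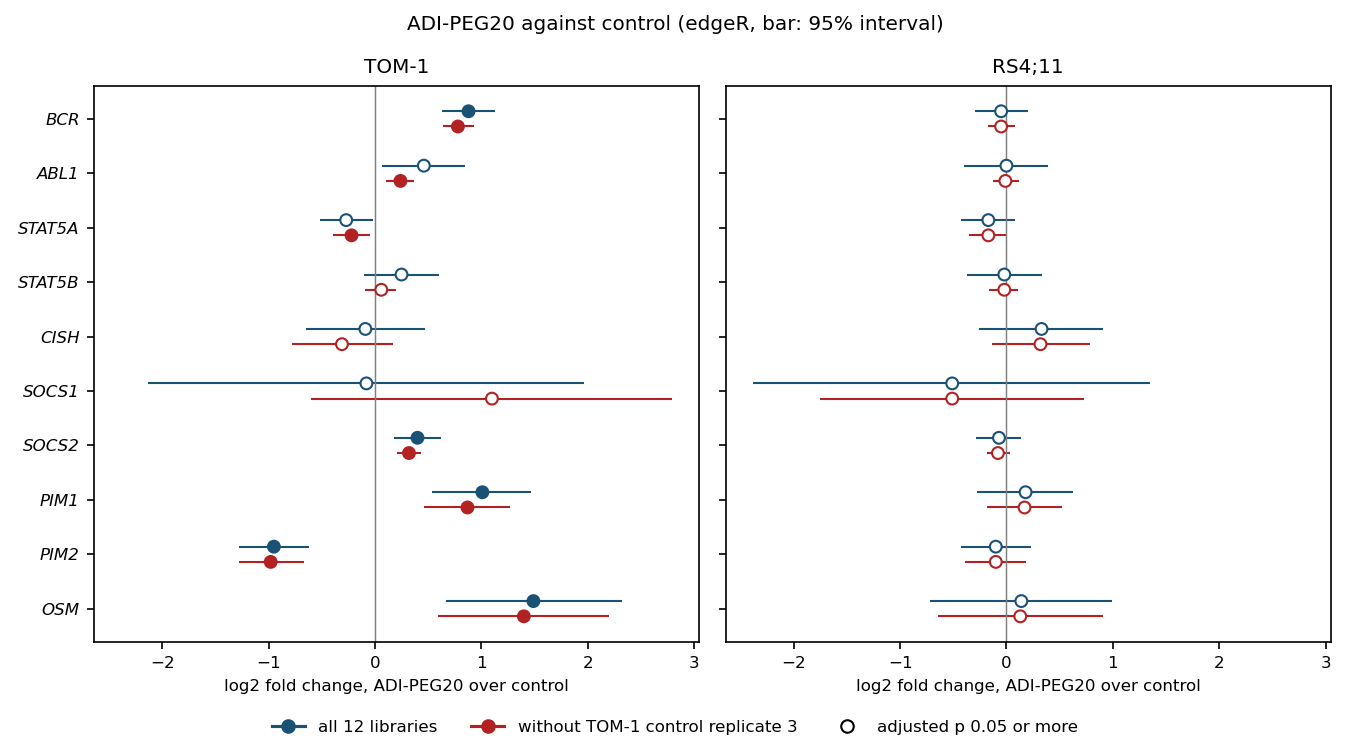
Log2 fold change of ADI-PEG20 over control (horizontal axes) for the 10 genes in TOM-1 and in RS4;11, with 95% intervals from edgeR; filled symbols passed an adjusted p of 0.05. Filled points are seen in TOM-1 only: 5 genes over the full set and 7 once TOM-1 control replicate 3 was left out.

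Counted together, 5 of the 10 genes were called in TOM-1, 4 higher (BCR, SOCS2, PIM1, OSM) and 1 lower (PIM2), where 31.9% of all tested genes were called, 15.9% higher and 15.9% lower. Their median log2 difference was 0.32 against 0.05 over all tested genes. When TOM-1 control replicate 3 was left out, 7 were called, ABL1 and STAT5A being added, against a background of 41.6%. Control and treated libraries did not overlap for 8 of the 10, where this held for 46.2% of all tested genes. In RS4;11 none of the 10 was called by edgeR, and none had an unadjusted p under 0.05, which 1.87% of the tested genes had. No gene of the whole table was called there with all libraries (background 0%), and 58 were (0.317%) without TOM-1 control replicate 3, again with no member among them. DESeq2 also called none of the 10 in RS4;11.

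The difference between the drug effects of the lines was tested directly, as TOM-1 minus RS4;11. BCR differed by log2 0.93 (SE 0.16, adjusted p = 0.00401, edgeR), SOCS2 by 0.47 (SE 0.14, adjusted p = 0.049) and PIM2 by -0.85 (SE 0.21, adjusted p = 0.0236). That made 3 of 10 genes, 2 positive and 1 negative, against 11.9% of all tested genes (5.89% and 6.05%). BCR kept its call when any 1 library was left out, whereas SOCS2 lost it in 10 of 12 such fits, all but those without TOM-1 control replicate 1 or 3, as well as with DESeq2 size factors (adjusted p = 0.0633) and without a filter on low counts (0.24). PIM2 lost it in 5, those without TOM-1 ADI-PEG20 replicate 2 or 3, RS4;11 control replicate 1 or 3, or RS4;11 ADI-PEG20 replicate 2 (highest adjusted p 0.0706), and also without the filter (0.0656). PIM1 (0.83, adjusted p = 0.0883) and OSM (1.35, adjusted p = 0.127) did not pass, so their response is not shown to differ between the lines with all libraries. With TOM-1 control replicate 3 left out, 5 of 10 passed against 30.4% of all genes, ABL1 (0.24, adjusted p = 0.0425) and PIM1 (0.69, adjusted p = 0.0445) being added to BCR (0.83), SOCS2 (0.40) and PIM2 (-0.87). PIM1 also passed without TOM-1 control replicate 1 (1.03, adjusted p = 0.0297).

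The lines already differed in these genes in control culture, which compares cell lines of different origin and not the presence of a fusion alone. TOM-1 differed from RS4;11 in 8 of the 10 genes, 6 higher and 2 lower, against 34.7% of all tested genes (16.2% higher, 18.4% lower). STAT5A was 6.69-fold higher in TOM-1 (185 ± 13.4 against 27.7 ± 0.873 CPM, adjusted p = 1.89e-08, edgeR), CISH 2.45-fold (adjusted p = 0.00249) and PIM2 2.02-fold (adjusted p = 0.000216). STAT5B was 1.83-fold higher (208 ± 50.2 against 114 ± 3.49 CPM), ABL1 1.61-fold (257 ± 74.8 against 160 ± 10.2 CPM) and SOCS2 1.53-fold (584 ± 55.8 against 383 ± 12.8 CPM). With TOM-1 control replicate 3 left out, the folds were 6.45 for STAT5A, 2.83 for CISH, 2.05 for PIM2, 2.08 for STAT5B, 1.88 for ABL1 and 1.6 for SOCS2, all called. The ABL1 call over the full set (adjusted p = 0.0108) was lost in 4 of the 12 leave-one-out fits, those without TOM-1 control replicate 1 or 2 and without RS4;11 control replicate 2 or 3 (highest adjusted p 0.0601). It was also lost when the 6 control libraries were fitted alone (log2 0.71, adjusted p = 0.0757).

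BCR and PIM1 went the other way in control culture. BCR was 1.5-fold lower in TOM-1 than in RS4;11 (log2 -0.59, adjusted p = 0.00161, edgeR) and PIM1 2-fold lower (adjusted p = 0.0029). SOCS1 was at 0.426, 0 and 1.21 CPM in TOM-1 controls, below all 3 RS4;11 controls, and was not called with all libraries (adjusted p = 0.0623, edgeR). It was called without TOM-1 control replicate 3, the TOM-1 control with most SOCS1 counts (adjusted p = 0.000842), without a filter on low counts (0.026) and by the DESeq2 Wald test (0.0179). OSM differed by 0.73 (adjusted p = 0.169). With TOM-1 control replicate 3 left out, BCR was 1.41-fold and PIM1 1.82-fold lower, and 9 of 10 genes were called against a background of 52.8%.

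**Figure D4:**
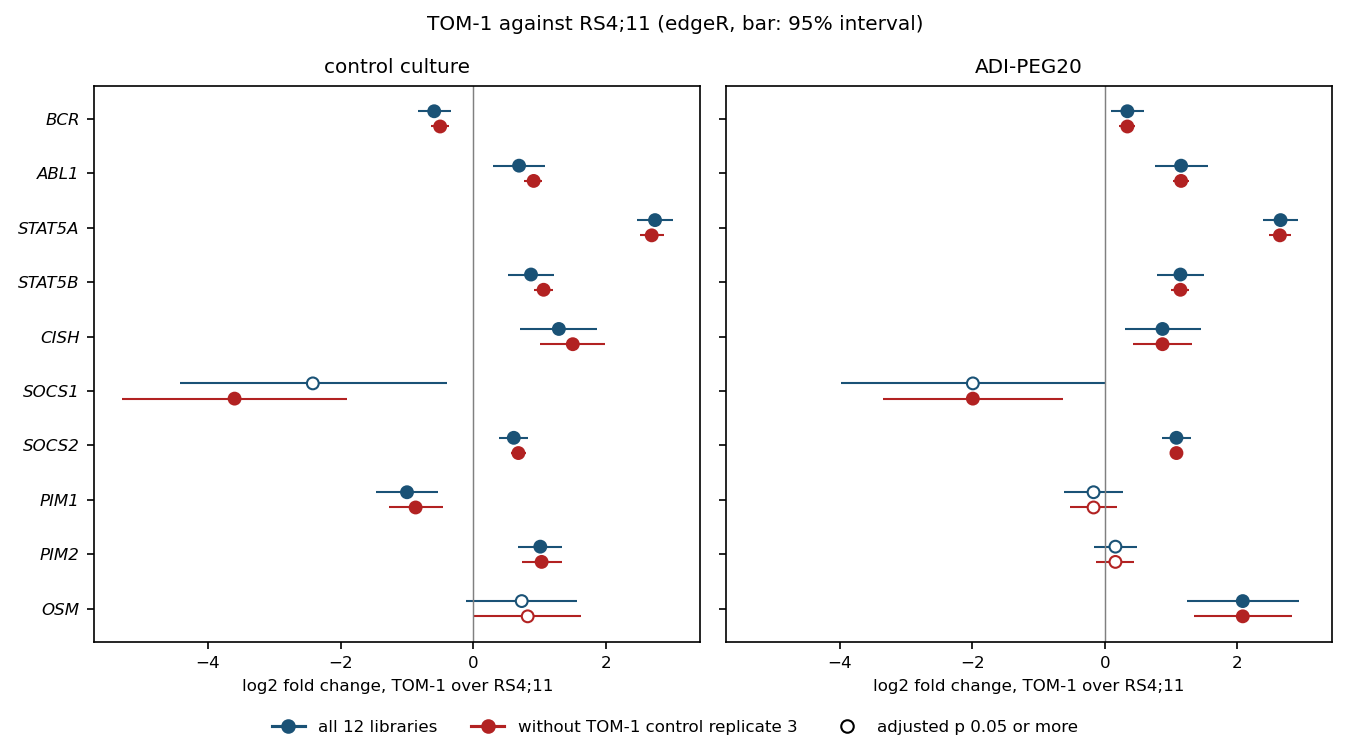
Log2 fold change of TOM-1 over RS4;11 (horizontal axes) for the 10 genes in control culture and under ADI-PEG20, with 95% intervals from edgeR; filled symbols passed an adjusted p of 0.05. BCR lies at -0.59 in control culture and at 0.34 under ADI-PEG20, and STAT5A lies at 2.74 and 2.65.

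Under ADI-PEG20 the order of the lines was different for BCR: 335 ± 21.5 CPM in TOM-1 against 265 ± 15.2 CPM in RS4;11, a 1.27-fold higher level (log2 0.34, adjusted p = 0.0274, edgeR). This call was lost in 11 of the 12 leave-one-out fits (highest adjusted p 0.232) and without a filter on low counts (0.133), and it held without TOM-1 control replicate 3 (adjusted p = 3.93e-05). In all, 7 of 10 genes were called under ADI-PEG20, each higher in TOM-1, against 47.2% of all tested genes (23.1% higher, 24% lower). With TOM-1 control replicate 3 left out, 8 were called (background 62.9%), SOCS1 being added as lower in TOM-1; SOCS1 was also called without TOM-1 control replicate 2, by the DESeq2 Wald test and with the 6 treated libraries alone. STAT5A was 6.28-fold higher, OSM 4.24-fold, ABL1 2.23-fold, STAT5B 2.2-fold, SOCS2 2.12-fold and CISH 1.83-fold. The CISH call (adjusted p = 0.0167) was lost in 4 of the 12 leave-one-out fits, those without TOM-1 ADI-PEG20 replicate 1 or any 1 treated RS4;11 library (highest adjusted p 0.0927). PIM1 (log2 -0.17, 95% interval -0.62 to 0.28) and PIM2 (0.16, -0.16 to 0.49), both different between the lines in control culture, were not called. The 2 line comparisons and the 2 drug comparisons share groups and are not independent of one another.

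The rest of the pathway was read from 5 lists, and in RS4;11 none of their tested genes was called under ADI-PEG20. In TOM-1, 4 of 14 tested receptors and kinases upstream of STAT5 were called (28.6%, beside 31.9% of all genes), 2 higher and 2 lower. IL7R, the receptor subunit for interleukin-7, fell 2.42-fold, from 169 ± 80.2 to 70.2 ± 2.06 CPM (adjusted p = 0.00553, edgeR), and JAK1, the kinase bound to it, rose 1.74-fold (adjusted p = 0.0309). LYN, a Src-family kinase, rose 1.53-fold (adjusted p = 0.0173). Leaving out TOM-1 control replicate 3 gave 6 called of 14 (42.9%, beside 41.6% of all genes in that fit), with IL7R at -1.62, JAK1 at 0.49 and LYN at 0.40 on the log2 scale. The JAK1 call was lost in 7 leave-one-out fits, each treated TOM-1 library and replicates 2 and 3 of both RS4;11 groups, and the LYN call without TOM-1 ADI-PEG20 replicate 1 or 2. TSLP and FGR did not pass the filter.

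Among 18 adaptors and effectors of BCR-ABL1, 6 were called (33.3%, beside 31.9% of all genes), 4 higher and 2 lower. GAB2, the docking protein that links the fusion kinase to phosphoinositide 3-kinase, rose 3.84-fold, from 171 ± 47.2 to 659 ± 2.46 CPM (adjusted p = 1.59e-05, edgeR), while RS4;11 stayed at 145 to 157 CPM in all libraries. CBLB, a ubiquitin ligase, rose 1.91-fold (adjusted p = 0.0457). DOK2, an inhibitory docking protein, was at 1.79 ± 1.77 CPM in controls and 0.254 ± 0.0233 CPM under treatment, a fall (adjusted p = 0.0191) that was not called without TOM-1 control replicate 3 or without any 1 treated TOM-1 library. CBLB kept its call only in the leave-one-out fits that dropped a TOM-1 control, 3 of 12. Excluding TOM-1 control replicate 3 gave 8 called of 18 (44.4%, beside 41.6% of all genes), with GAB2 at 1.73 and CBLB at 0.56 on the log2 scale. GRB2, SHC1 and CRKL, which bind the fusion protein, were not called (log2 -0.02, 0.28 and 0.39).

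Of 10 tested inhibitors of cytokine signalling, 5 were called, 4 higher and 1 lower. This was 50% of the list, beside 31.9% of all tested genes (15.9% higher, 15.9% lower). SH2B3, the adaptor LNK that restrains JAK2, rose 2.58-fold, from 55.6 ± 20 to 144 ± 1.59 CPM (adjusted p = 0.000856, edgeR), and SOCS7 rose 2.46-fold (adjusted p = 0.01). PTPN6, the phosphatase SHP-1, fell 3.12-fold, from 154 ± 45.5 to 49.2 ± 4.07 CPM (adjusted p = 5.3e-05). The same number was called when TOM-1 control replicate 3 was excluded, beside 41.6% of all genes in that fit. PTPN6 was then at -1.38, SH2B3 at 1.10 and SOCS7 at 0.92 on the log2 scale. SOCS3 and CBLC did not pass the filter.

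The STAT factors STAT2, STAT3 and STAT6 were called in TOM-1, all 3 tested, beside 31.9% of all genes. STAT4 did not pass the filter. STAT2 rose 2.04-fold (adjusted p = 0.00196, edgeR) and STAT3 1.69-fold (adjusted p = 0.012), and STAT6 fell by 0.49 on the log2 scale (adjusted p = 0.00391). These 3 calls held without TOM-1 control replicate 3, at 0.79, 0.52 and -0.53 on the log2 scale. When the 6 TOM-1 libraries were fitted alone, the calls of STAT3, SOCS7, IL7R, JAK1, LYN, CBLB and DOK2 were lost. The 2 STAT5 genes, with STAT5A at -0.27 and STAT5B at 0.25, did not pass with all libraries.

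Of 11 further tested STAT5 target genes, 2 were called in TOM-1: SPRY2, an inhibitor of growth factor signalling, rose 2.1-fold, from 35.5 ± 1.17 to 74.4 ± 1.66 CPM (adjusted p = 7.79e-05, edgeR), and MYC, the transcription factor of growth, fell 1.58-fold, from 460 ± 32.3 to 291 ± 12.8 CPM (adjusted p = 0.000452). BCL6, with 4 palindromes in a promoter window like CISH, measured 16.8 ± 4.1 and 19.7 ± 1.29 CPM (log2 0.23, adjusted p = 0.324). Leaving out TOM-1 control replicate 3, 5 of the 11 were called (45.5%, beside 41.6% of all genes), BCL2L1, CCND2 and DUSP6 being added as higher, with SPRY2 at 1.09 and MYC at -0.61 on the log2 scale. The further targets were listed by name without a direction of regulation, and whether STAT5 set their levels was not tested. The shares of the 5 lists called in TOM-1 with all libraries ran from 18.2% to 100%, beside the 31.9% of all genes.

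**Figure D5:**
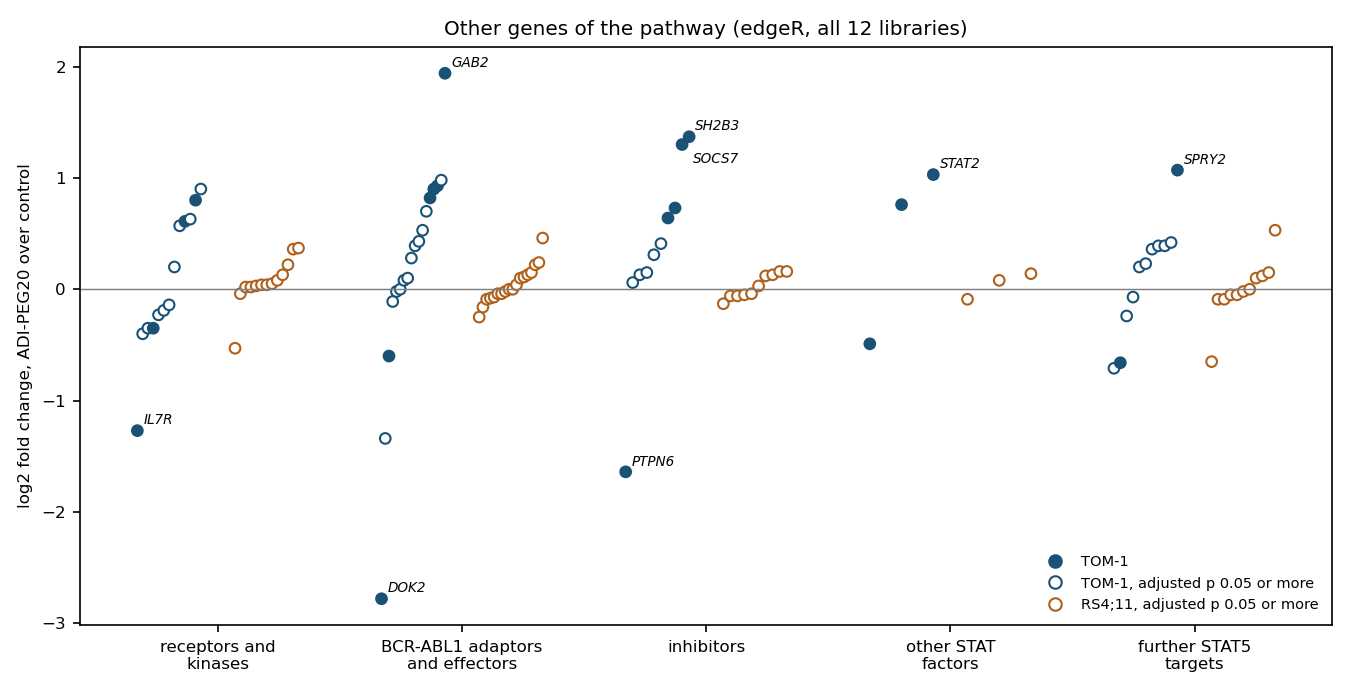
Log2 fold change of ADI-PEG20 over control (vertical axis) for the tested genes of 5 pathway lists, TOM-1 and RS4;11 side by side and sorted by value within each list, edgeR with all 12 libraries. Filled points passed an adjusted p of 0.05 and are seen in TOM-1 only, GAB2 at 1.94 being the highest; CRLF2, at 0 in all RS4;11 controls, is not drawn.

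Between the lines in control culture, the further STAT5 targets differed in 5 of 11 tested genes, 3 higher and 2 lower in TOM-1 (45.5%, beside 34.7% of all genes). DUSP6, a phosphatase of ERK, was measured at 227 ± 33.3 CPM in TOM-1 against 5.21 ± 0.872 CPM in RS4;11, a 43.5-fold higher level (adjusted p = 9.33e-09, edgeR). CCND2, which encodes cyclin D2, measured 113 to 155 CPM in TOM-1, where RS4;11 libraries held at most 0.239 CPM. BCL6, a transcriptional repressor, was 3.01-fold lower in TOM-1 (adjusted p = 1.27e-05, edgeR). Of the receptors and kinases, 7 of 14 were called (50%), 3 higher and 4 lower in TOM-1. Without TOM-1 control replicate 3, 11 of these 14 (78.6%) and 6 of the 11 further targets (54.5%) were called, beside 52.8% of all genes. CSF2RB, the beta chain of the interleukin-3 receptor, was at 0 to 0.468 CPM in TOM-1 controls against 24.3 to 34 CPM in RS4;11 controls, while IL3RA, the alpha chain, was 5.4-fold higher in TOM-1 (adjusted p = 5.01e-06). Among the other lists, GAB1, a docking protein related to GAB2, was 3.04-fold higher in TOM-1 (adjusted p = 0.000608), and RIN1, a Ras-binding activator of ABL kinases, 6.51-fold and PTPN6 2.64-fold lower (adjusted p = 0.00044 and 5.19e-05). STAT3 and ABI2 were called higher in TOM-1 (1.77-fold and 1.8-fold), and PIAS3 (1.88-fold) and STAT6 (1.23-fold) lower. All of these calls with a fold, from DUSP6 to STAT6, held without TOM-1 control replicate 3. Those of STAT3, ABI2, PIAS3 and STAT6 were lost when the 6 control libraries were fitted alone (adjusted p from 0.0539 to 0.209), that of ABI2 also without RS4;11 control replicate 3, and that of STAT6 also without a filter on low counts and in 6 of the 12 leave-one-out fits.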

How the data were processed

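The authors deposited 1 table of unnormalized counts, reads per Ensembl gene as whole numbers. STAR, SAMtools, featureCounts and hg38 are named per the submitters' processing notes; their settings, the versions, the annotation release and the use of strand are not given in the sources used here. RNA was column-extracted and captured by poly(A) tail, per the labels' protocols. Groups and replicate numbers came from the sample titles, and 0 columns lacked a sample.

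The tests used edgeR 4.0.16 under R 4.3.3: filterByExpr, TMM scaling (trimmed mean of M values), 1 group-means model over 12 libraries (glmQLFit, glmQLFTest), 5 contrasts, Benjamini-Hochberg adjustment over all 17349 tested genes (18321 without TOM-1 control replicate 3) and a threshold of 0.05. CPM are TMM-scaled. Intervals are 95%. Ratios of counts were compared by exact permutation, and leaving out each library for these ratios was chosen after seeing the data. Alternatives were each library left out, DESeq2 size factors, no filter, the replicate number as a block, DESeq2 1.42.0 (Wald test), and the 6 libraries of a contrast alone.

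The fit was tested on simulated data over 17349 genes: of 100 genes changed 2-fold in treated TOM-1, 38 were recovered, and of 100 changed 4-fold, 82, with 6 false calls. For the difference between the lines, 9 and 65 were recovered, with 3 false calls. Without TOM-1 control replicate 3, over 18321 genes, 74 and 95 were recovered in TOM-1. In the simulation only these genes were changed, and every other gene had the same mean level in both lines and treatments. In the data 31.9% of tested genes were called in TOM-1 with all libraries, so these rates need not hold there.

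The members and lists were chosen with earlier results of these data known, and 2 genes of the lists are not reported here. All 10 members are named; of other genes, the rule named up to 3 called genes with the largest change per list and contrast, and any further name was chosen after its values were seen. GENCODE release 29 (GRCh38) gave exon lengths, positions and overlaps; promoters came from RefSeq on GRCh38.p14. Fitted folds of genes at or near 0 counts in a group are not printed, except log2 values of SOCS1, whose TOM-1 libraries hold 0 to 22 counts, and these depend on the prior count. Figures were drawn with matplotlib 3.10.9.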

Additional observations from a re-analysis of the deposited data

Results flagged for a closer look

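For 10 genes of the report the test of the difference between the ADI-PEG20 effects, TOM-1 minus RS4;11, passed an adjusted p of 0.05 (edgeR, all 12 libraries), in log2 units. Among the ABL1, BCR and STAT5 output genes these were BCR at 0.93 (adjusted p = 0.00401), SOCS2 at 0.47 (0.049) and PIM2 at -0.85 (0.0236). Among the other genes of the pathway they were GAB2 at 1.98 (adjusted p = 0.000533), SH2B3 at 1.24 (0.0257) and SPRY2 at 0.97 (0.00416), which moved upward in TOM-1 relative to RS4;11. PTPN6 at -1.51 (adjusted p = 0.00261), IL7R at -1.40 (0.0415), MYC at -0.66 (0.0101) and STAT6 at -0.57 (0.0269) moved downward. Of all tested genes, 11.9% were called for this difference. The shares were 3 of 10 members, 1 of 14 receptors and kinases (7.14%) and 1 of 18 adaptors and effectors (5.56%). They were 2 of 10 inhibitors (20%), 1 of 3 other STAT factors (33.3%) and 2 of 11 further STAT5 targets (18.2%).

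The calls of BCR, GAB2, PTPN6, SPRY2 and MYC held in all 12 fits that left out 1 library. Those of the other genes were lost in some: SOCS2 in 10, PIM2 in 5, IL7R in 11, and SH2B3 in 8, those without any 1 treated library of either line and those without RS4;11 control replicate 1 or 2. STAT6 lost its call in 6, those without TOM-1 ADI-PEG20 replicate 1 or 2, RS4;11 control replicate 1 or 2, or RS4;11 ADI-PEG20 replicate 2 or 3. Without a filter on low counts, the calls of SOCS2 (adjusted p = 0.24), PIM2 (0.0656) and STAT6 (0.122) were lost, and with DESeq2 size factors that of SOCS2 (0.0633). Leaving out TOM-1 control replicate 3 ended none of these 10 calls.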

How the results depend on the processing

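When each of the 12 libraries was left out in turn, the number of the 10 genes called ran from 3 to 7 for ADI-PEG20 in TOM-1, 0 to 0 in RS4;11, 1 to 5 for the difference, 7 to 9 between the lines in control culture and 5 to 8 under ADI-PEG20. The number of all genes called ran from 3960 to 7616, 0 to 58, 1169 to 5567, 4731 to 9681 and 6838 to 11531 in the same order, each highest value being the fit without TOM-1 control replicate 3. Without a filter on low counts, SOCS2 and PIM2 lost their calls for the difference and BCR kept its call. The DESeq2 Wald test called 3228 genes for the difference. Fits on the 6 libraries of a contrast alone called 2639 genes in TOM-1, 3 in RS4;11 and 3548 between the lines in control culture. The causes of these shifts were not tested.

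Estimates near 0 changed sign, none of them called. In RS4;11, the log2 difference of ABL1 was 0.00 with DESeq2 size factors and with the Wald test and 0.01 without a filter. Over the fits with 1 library left out, it ran from -0.04 to 0.06 for ABL1, -0.08 to 0.00 for BCR, -0.09 to 0.04 for STAT5B and -0.14 to 0.55 for OSM. In TOM-1 it ran from -0.31 to 0.04 for CISH and -0.74 to 1.10 for SOCS1, the highest SOCS1 value being the fit without TOM-1 control replicate 3. The difference between the lines for SOCS1 ran from -0.24 to 1.61.

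Replicate numbers were not used to pair the samples: same-numbered libraries had deviations correlated at -0.062 to 0.145. Each treated TOM-1 library still correlated best with the treated RS4;11 library of its own number (0.028, 0.026 and 0.015). No TOM-1 control did so with the treated TOM-1 libraries. Whether same-numbered libraries share a batch was not tested. With the replicate number as a block, ABL1 gained a call in TOM-1 (log2 0.49, adjusted p = 0.0421, edgeR) and SOCS1 there moved to 0.05. IL7R lost the call of its difference (-1.34, adjusted p = 0.055, edgeR). The block changed no other call of the 10 genes.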
